A study of Drosophila melanogaster with 5 samples.

Results

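The subtracted cDNA library of *D. melanogaster* gastrula embryos holds, besides protein-coding genes, clones that its annotation places inside introns or between genes. These clones were taken as the rows of the library whose annotation reads intron or intergenic, with the control spots set aside. They were 36 introns and 15 intergenic regions, 51 of 310 annotated features, next to 259 genes. On membrane D they were represented by 50 intron clones and 18 intergenic clones of 579 library clones. All embryos were wild-type Canton S, pooled by stage into 5 intervals. S2-3 covers the syncytial blastoderm, S5 is the time of cellularization, S6-7 is the gastrula, and S8-9 and S10-12 follow it. There was no mutant or treated group, and each interval is 1 labeled sample. 32P-labeled SMART-cDNA of each interval was hybridized to 4 nylon membranes, A to D, 20 in all. Probes were prepared and hybridized in 2 rounds, and which membranes belong to which round is not stated. Membranes A to C carried 26 clones of 23 members (15 introns and 8 intergenic regions), and membrane D carried all 51. The 4 membranes of an interval are not labeled as separate embryo pools, so the p-values below reflect spread among membranes, which may be technical.

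Early *Drosophila* embryos divide as a syncytium on maternal RNA, and zygotic transcription is largely switched on as the blastoderm becomes cellular. Introns are copied into the primary transcript and removed by splicing, and intergenic regions can hold unannotated exons, untranslated ends or non-coding RNA. A double-stranded probe does not resolve strand, so a signal on an intron clone can come from either strand, spliced or not. Whether similar sequences elsewhere in the genome added to a signal was not tested. The library was enriched for sequences more abundant in stage 6-7 than in stage 2-3 embryos, which bears on the direction of every difference below. No clone sequence or genome position is given here, because the tables used here hold none.

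Of the 36 host genes, 32 had 1 symbol in the RefSeq gene table. They included receptors and adhesion molecules (*Egfr*, an epidermal growth factor receptor, *Ten-a*, a teneurin, and *TrissinR*, a neuropeptide receptor), regulators of transcription and translation (*pnt*, an ETS factor, *skd*, a Mediator subunit, *Maf1*, a repressor of RNA polymerase III, and *eIF4EHP*, a cap-binding repressor of translation), components of Notch signaling (*kuz*, a metalloprotease, and *numb*, a Notch inhibitor) and metabolic enzymes (*nvd*, an oxygenase of ecdysone synthesis, and *P5CS*). The intergenic regions are named by the identifiers of their flanking genes, for example FBgn0035378-FBgn0035379. None of these 30 identifiers had an entry in the table used, so no flanking gene is named.

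Most clones gave a measurable signal after the syncytial stage. A spot was counted when its mean signal reached the local background mean plus 1 background SD. Of 208 intron spots per interval, 40.9, 67.3, 73.6, 62.5 and 68.3% passed in the order of the 5 intervals, from S2-3 to S10-12. Of 84 intergenic spots, 32, 63, 54, 55 and 53 passed, from 38.1% at S2-3 to 63.1% at S10-12. Spots of genes passed in 43.0, 77.0, 80.1, 75.1 and 72.0%, and blank DMSO spots in 0.357, 14.6, 9.11, 6.07 and 8.04%. Membranes differed within an interval, from 33.3 to 91.0% of intron spots at S10-12 and from 13.9 to 66.7% at S2-3. Without membrane D, 56.5, 63.9, 45.4 and 47.2% of intron spots passed from S5 to S10-12 in order. Blank spots passed most often on membrane A, in 29.9% at S5 and 34.7% at S6-7. These shares are of spots, and clones printed in duplicate are not independent.

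**Figure D1:**
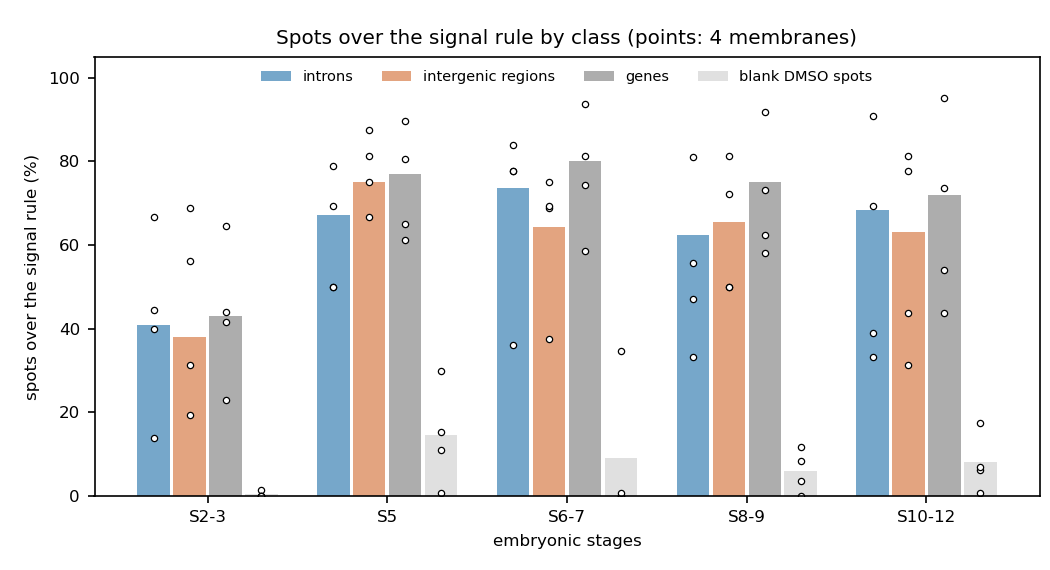
Percentage of spots over the signal rule (y axis, from 0) at the 5 intervals (x axis) for introns, intergenic regions, genes and blank DMSO spots. Bars pool the spots of an interval and the points are its 4 membranes. Each class of the library has its lowest bar at S2-3, where 40.9% of intron spots, 38.1% of intergenic spots and 43.0% of gene spots passed.

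The intron spots printed passed less often than gene spots on the same membranes. The mean over membranes was 56.9% of intron spots and 66.5% of gene spots, a difference of -9.56 percentage points (SD 8.87, 20 membranes), with introns lower on 17 of 20 (two-sided permutation test of paired signs, p = 6e-05, adjusted p = 0.0001 over 5 comparisons). Intergenic spots passed in 61.2% against 66.5% of gene spots, a difference of -5.30 points (SD 14.3), lower on 12 of 20 membranes (permutation test, p = 0.11, adjusted p = 0.14). On membrane D alone, intergenic spots lay below gene spots at all 5 intervals, at 61.1 against 82.5%, and without membrane D the mean difference was 0.0533 points. Both classes stood above the blank spots on 20 of 20 membranes, with the smallest p that 100000 permutations give (1e-05). Blank spots hold no clone, so this comparison does not show that a signal is specific to its sequence. The lengths of the clones were not known here, and their part in these shares was not tested. The same clones recur from membrane to membrane, so the p-values of these comparisons do not measure spread between clones.

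Some members were never, or hardly ever, above background. No spot of 10 reached the rule for the intron of CG5462 (*scrib*, an epithelial polarity gene), for FBgn0029590-FBgn0029591 or for FBgn0085706-FBgn0085705. The introns of CG17299 (*SNF4Agamma*, a subunit of AMP-activated kinase) and CG7213 passed in 2 of 10 spots each. These 5 were printed on membrane D alone. The next lowest shares were 15 of 60 spots for the intron of CG40411 and 14 of 40 each for FBgn0016120-FBgn0038679 and the intron of CG120261. At S10-12, 2 of 36 introns and 2 of 15 intergenic regions had no value on any membrane, against 12 introns and 8 intergenic regions at S2-3.

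For comparisons between intervals, signals were expressed relative to the median RP49 spot of the same membrane (*RP49* is a ribosomal protein gene used as a constant standard). Clones of 1 member were averaged before the log2 step. A duplicate pair with a coefficient of variation over 0.5 was left out. A test needed values on 2 or more membranes of each interval compared, which left 10 introns and 6 intergenic regions in at least 1 comparison. The other members had too few values that passed or were printed on membrane D alone. In whole embryos, fewer cells with a transcript and less RNA per cell cannot be told apart.

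The region FBgn0035378-FBgn0035379 had the largest differences from S2-3 of the tested members at S6-7 and S8-9, the intervals of gastrulation and early germ band extension. Relative to RP49 its signal was 0.222 and 0.163 on membranes A and B at S2-3, with no value on C or D. At S5 it was 0.362, 0.908 and 0.738 on A, B and D. At S6-7 it reached 1.00, 2.90 and 1.44 on A, B and D, and at S8-9 1.53, 1.48, 0.673 and 2.33 on A to D. At S10-12 it was 0.202, 0.890, 0.0821 and 1.73. Membrane C has no value at S5 and S6-7 because its duplicates differed too much. All measured membranes of S6-7 and S8-9 lay above both of S2-3, whereas the membranes of S10-12 overlapped them.

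The mean log2 difference was 3.08 (SE 1.06) for S6-7 over S2-3 and 2.85 (SE 1.00) for S8-9 over S2-3. In the limma fit of all 20 membranes with interval means only, neither passed (adjusted p = 0.107 and 0.0919). The membrane letter was also used as a block, which removes offsets between letters that stay constant over the intervals. They did not all stay constant. Among the members, the median log2 difference of D from A was 1.24 at S2-3 and 2.17, 2.08, 1.71 and 2.12 later. With this block the S6-7 and S8-9 differences of the region were 2.85 (SE 0.64, adjusted p = 0.0042) and 3.17 (SE 0.63, adjusted p = 0.0008). The region was thus called higher in both intervals with the block and in neither without it. At S5 and S10-12 the differences were 1.71 and 1.07 (adjusted p = 0.514 and 0.517) without the block and 1.48 and 1.39 (adjusted p = 0.0716 and 0.0727) with it. The S2-3 mean rests on 2 membranes, with 1 of 2 spots passed on each. Leaving out membrane C or D gave adjusted p-values of 0.032 and 0.0080 at S6-7 and 0.027 and 0.025 at S8-9 without a block, and without A or B the region could not be tested.

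The signal came from 1 of its 3 clones. Clone 27_E12, printed on all 4 letters, passed in 32 of 40 spots. Clones 26_C12 and 26_D12, printed on membrane D only, passed in 0 of 10 spots each, at every interval. The annotation gives the 3 clones 1 region, and it is not known here whether they overlap.

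**Figure D2:**
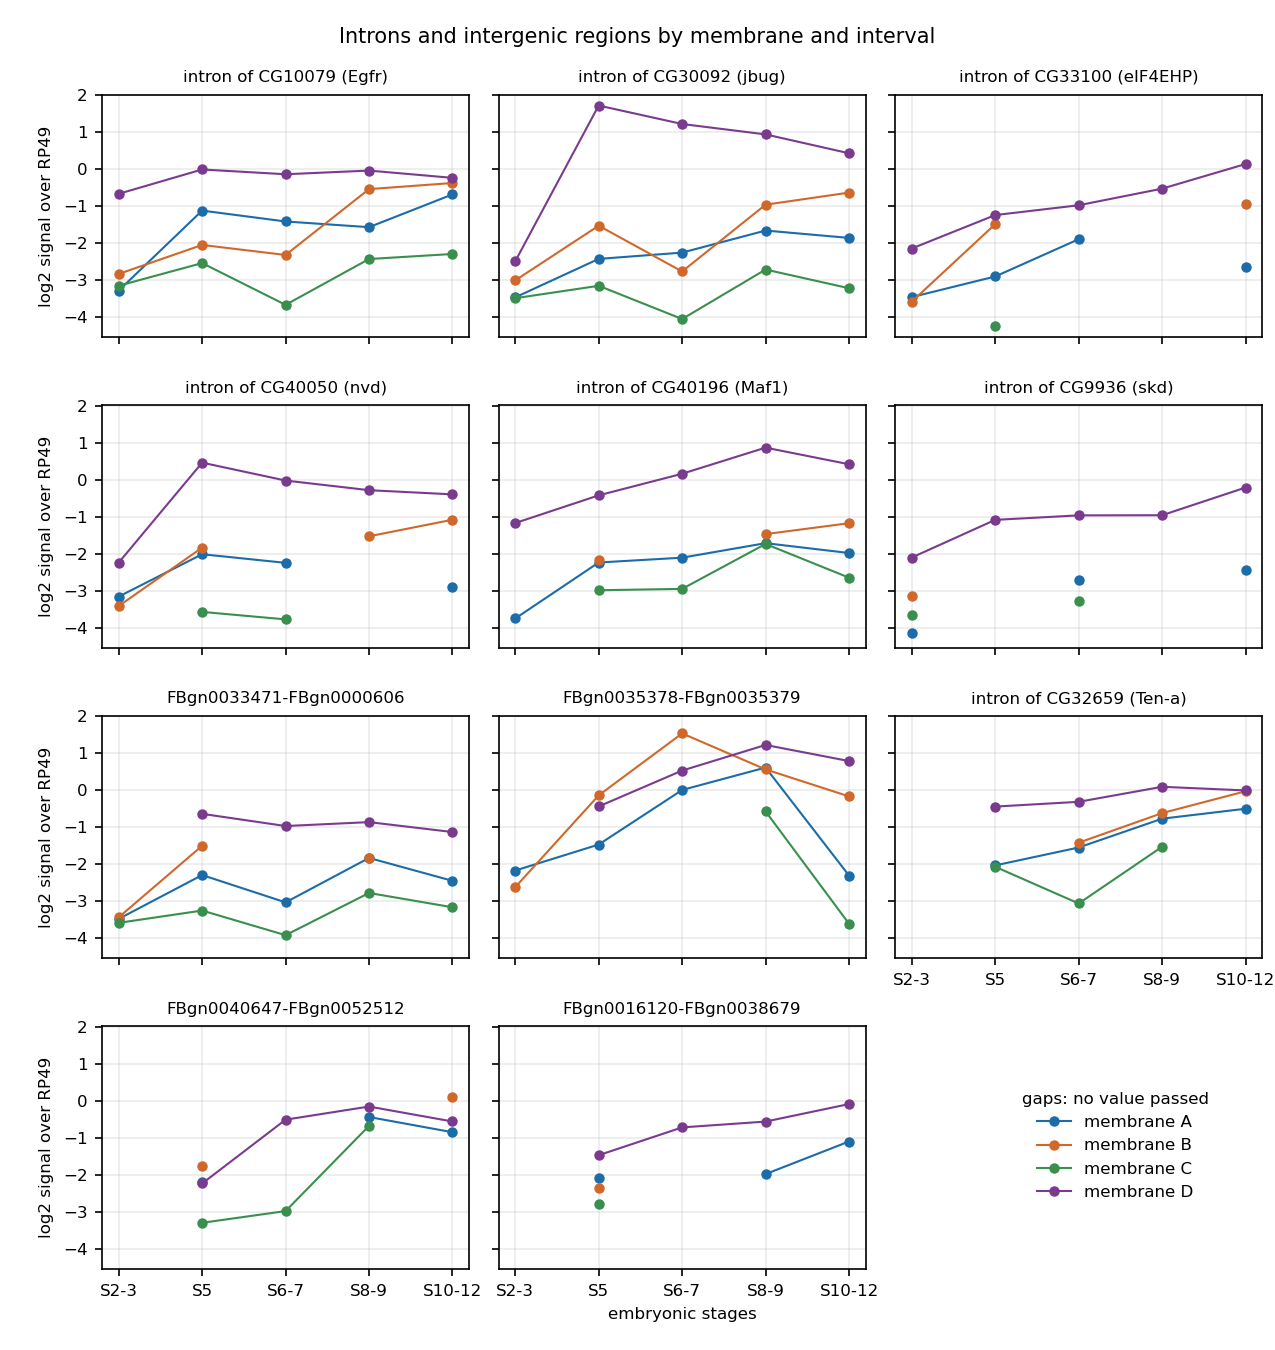
Log2 signal over RP49 (y axis) at the 5 intervals (x axis) for the 8 members called with or without the block and the 3 members given a bound. Colors mark membranes A to D, and gaps are values that did not pass the signal or duplicate rule. FBgn0035378-FBgn0035379 is highest at S6-7 or S8-9 on each membrane measured there, and membrane D lies above the other letters for most members.

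No intron passed in the fit without the block. Of 9, 10, 7 and 9 introns tested at the 4 later intervals, from S5 to S10-12, against S2-3, 0 were called in any comparison (limma, adjusted p under 0.05), and 0, 0, 1 and 0 had an unadjusted p under 0.05. Without membrane D, 1 intron was called at S10-12, that of CG10079 (*Egfr*), with a difference of 1.97 (adjusted p = 0.041). Of 6 intergenic regions tested in each comparison, 0 were called, and 0, 1, 1 and 0 had an unadjusted p under 0.05. Over all features tested, 5.03, 4.14, 3.23 and 3.25% were called higher and 0.0% lower at the 4 intervals. The differences themselves were mostly above 0. Their median was 0.69, 0.88, 1.34 and 1.48 over the introns and 0.73, 0.37, 1.06 and 0.81 over the intergenic regions, beside 0.85, 0.54, 0.88 and 1.11 over all features.

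With the membrane letter as a block, 4 of 9, 3 of 10, 4 of 7 and 6 of 9 introns were called higher from S5 to S10-12 in order, and 1, 1, 2 and 0 of 6 intergenic regions. In the same fits 39.6, 21.4, 39.4 and 44.2% of all features tested were called higher, so that calls were frequent across the whole library in this fit. No intron or intergenic region was called lower, against 1.26, 0.0, 0.645 and 2.6% of all features. Differences of the members called are given relative to RP49 unless another scale is named.

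The intron of CG30092 (*jbug*, a filamin-type actin-binding protein) was measured on all 20 membranes. Its signal over RP49 was 0.0904, 0.124, 0.0890 and 0.178 on membranes A to D at S2-3. It was 0.186, 0.346, 0.112 and 3.28 at S5, 0.209, 0.147, 0.0602 and 2.32 at S6-7, 0.316, 0.512, 0.152 and 1.91 at S8-9, and 0.275, 0.643, 0.107 and 1.34 at S10-12. Each letter was higher than its own S2-3 membrane at every later interval, except C at S6-7. With the block the differences were 1.76 (SE 0.50, adjusted p = 0.0092) at S5, 2.01 (adjusted p = 0.0029) at S8-9 and 1.79 (adjusted p = 0.0079) at S10-12. At S6-7 the difference was 1.15 (adjusted p = 0.104). Without the block the adjusted p-values were 0.472, 0.907, 0.335 and 0.315 at the 4 intervals. On membranes A to C alone, with the block, the difference at S5 was 0.95 (adjusted p = 0.0787). These values average different clones on different membranes. Clone 25_D07 by itself, the clone with most values, had differences of 1.87, 0.97, 1.92 and 2.17 with the block (adjusted p = 0.00059, 0.0856, 0.00035 and 0.00015) from S5 to S10-12 in order.

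The clones of this intron did not move alike on membrane D. Clone 25_C02 was at 0.248 at S2-3 and at 9.94, 5.62, 4.34 and 0.756 at the later intervals in order. Clone 25_D07 was at 0.153, 0.742, 0.550, 0.594 and 0.972 over the 5 intervals, and clone 10_B01 at 0.131, 0.624, 0.356, 0.429 and 0.334. Clone 27_H09, on membrane D only, had no value at S2-3 and was highest at S10-12, at 3.31. The highest clone stood 15.9-fold above the lowest at S5 and 9.91-fold at S10-12. On membranes A to C clone 25_C02 had 0.558, 1.03 and 0.207 at S8-9, again above the other clones there. At S5 its duplicates differed too much on A and B, so that the values of the intron on those membranes come from the other clones.

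The intron of CG40196 (*Maf1*) was called higher than at S2-3 at all 4 later intervals with the block, and its clones differed in course. The signal was 0.0742 and 0.443 on membranes A and D at S2-3. On membranes A to D it was 0.212, 0.222, 0.126 and 0.744 at S5, 0.304, 0.360, 0.299 and 1.82 at S8-9, and 0.253, 0.442, 0.160 and 1.33 at S10-12. At S6-7 it was 0.232, 0.129 and 1.12 on A, C and D. With the block the differences were 1.13 (adjusted p = 0.0367), 1.40 (adjusted p = 0.0251), 2.07 (adjusted p = 0.0008) and 1.74 (adjusted p = 0.0031) from S5 to S10-12 in order. Without it the differences were 0.51, 0.83, 1.45 and 1.11 (adjusted p = 0.810, 0.936, 0.534 and 0.517). Membranes A to C carry 1 clone of this intron and membrane D carries 5, whose values at S10-12 ran from 0.235 to 3.17. With the block, that 1 shared clone, 25_C11, had differences of 1.39, 1.57, 1.95 and 1.63 (adjusted p = 0.0249, 0.0233, 0.0020 and 0.0084). On membrane D it had 0.212 at S2-3 and 0.702, 0.744, 0.596 and 0.458 later, so that it was highest at S6-7, whereas clone 27_A07 was highest at S8-9, at 3.35 against 0.674 at S2-3.

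**Figure D3:**
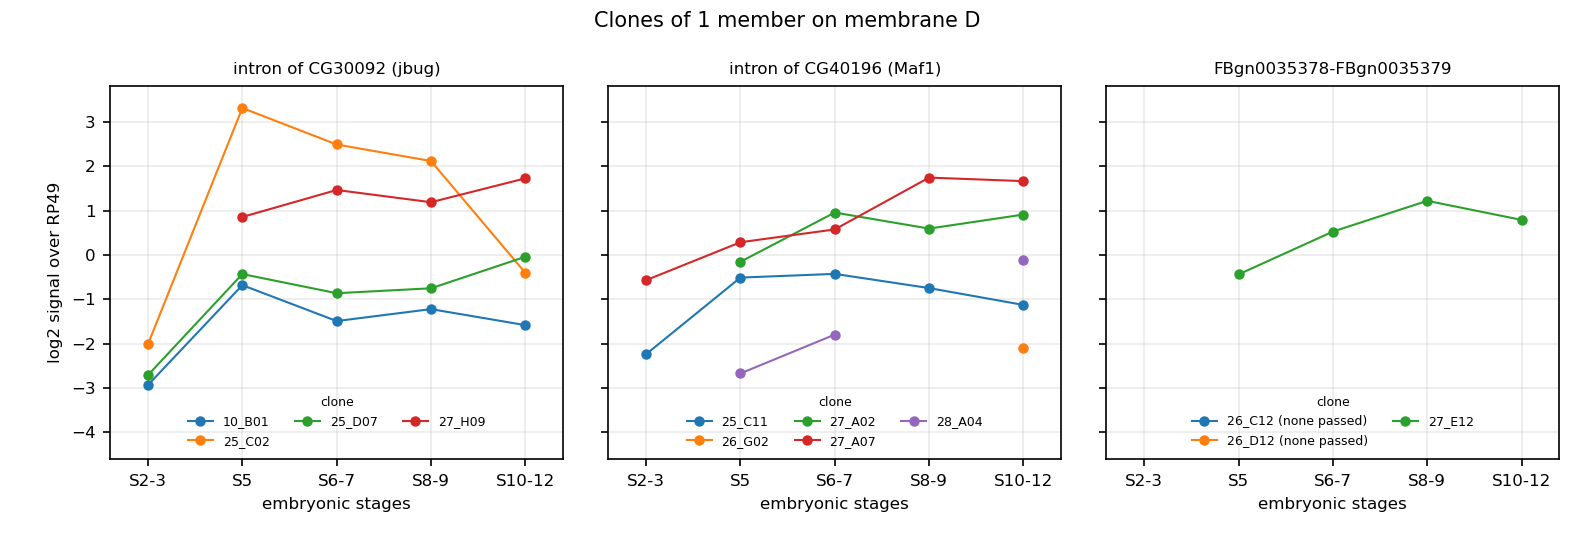
Log2 signal over RP49 (y axis) of single clones on membrane D at the 5 intervals (x axis), for 2 introns and 1 intergenic region with several clones. In FBgn0035378-FBgn0035379 only clone 27_E12 has values, and in the intron of CG30092 clone 25_C02 is highest at S5, S6-7 and S8-9 and clone 27_H09 at S10-12.

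The intron of CG40050 (*nvd*) had 0.112, 0.0938 and 0.211 on membranes A, B and D at S2-3. At S5 it had 0.247, 0.280, 0.0839 and 1.37 on A to D, the highest interval on membrane D. At S10-12 it had 0.134, 0.472 and 0.758 on A, B and D. With the block it was called higher at all 4 intervals, by 1.82, 1.67, 1.59 and 1.48 (adjusted p = 0.0041, 0.0204, 0.0194 and 0.0145). Without it the differences were 1.20, 0.92, 2.03 and 1.48 (adjusted p = 0.555, 0.936, 0.416 and 0.396). All 3 letters with a value in both intervals were higher at S10-12 than at S2-3. On C neither interval passed, and the unfiltered signal was 0.0489 at S2-3 and 0.0272 at S10-12. On B at S6-7 it did not pass either, at 0.0507 unfiltered. At S8-9 the unfiltered signals of A and C, which did not pass, were 0.170 and 0.119.

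The intron of CG33100 (*eIF4EHP*) had 0.161, 0.519 and 1.10 on membranes A, B and D at S10-12, against 0.0909, 0.0834 and 0.226 on the same letters at S2-3. Each of these letters was higher at S10-12, and C did not pass in either interval. The difference was 1.91 (SE 0.47, adjusted p = 0.0048) with the block and 1.91 (adjusted p = 0.315) without it. At S6-7 it had 0.269 and 0.507 on A and D. The difference there was 1.64 with the block (adjusted p = 0.0401) and 1.63 without it (adjusted p = 0.892). Membranes B and C did not pass at S6-7. Their unfiltered signals, 0.0482 and 0.0388, lay below those of S2-3, 0.0834 and 0.0508, so the S6-7 difference rests on A and D. The intron of CG9936 (*skd*) had 0.182 and 0.862 on A and D at S10-12, against 0.0568, 0.113, 0.0799 and 0.232 on A to D at S2-3. Its difference there was 1.64 with the block (adjusted p = 0.0187) and 1.93 without it (adjusted p = 0.315). On B and C it did not pass at S10-12, with unfiltered signals of 0.123 and 0.0235.

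The region FBgn0033471-FBgn0000606 had 0.0899, 0.0925 and 0.0834 on membranes A to C at S2-3, values that lay close together. At S5 it had 0.204, 0.353, 0.105 and 0.643 on A to D, and at S8-9 0.281, 0.280, 0.146 and 0.550. All membranes of both intervals were above those of S2-3 with a value. D did not pass at S2-3, with an unfiltered signal of 0.106. With the block the differences were 1.16 (adjusted p = 0.0225) and 1.25 (adjusted p = 0.0124), and without it 1.58 and 1.67 (adjusted p = 0.440 and 0.335). At S6-7 and S10-12 they were 0.45 and 0.84 with the block (adjusted p = 0.475 and 0.102).

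**Figure D4:**
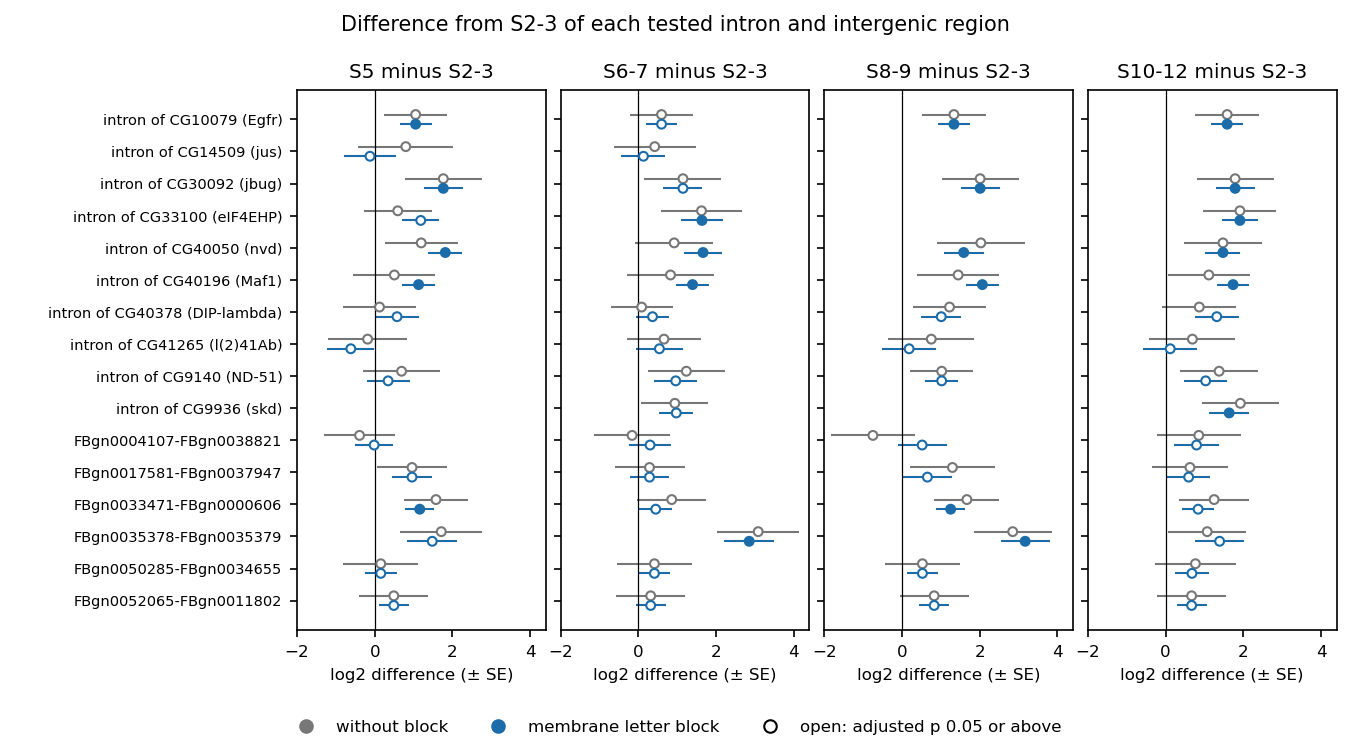
Log2 difference from S2-3 with its SE (x axis) for the 10 introns and 6 intergenic regions tested (y axis), 1 panel per interval. Grey points come from the limma fit without a block and blue points from the fit blocked by membrane letter, and filled points have an adjusted p under 0.05. No grey point is filled, and FBgn0035378-FBgn0035379 lies farthest right at S6-7 and S8-9.

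Of the 4 intergenic regions measured on the most membranes, the other 3 were not called in either fit relative to RP49. FBgn0052065-FBgn0011802, with a value on all 20 membranes, had 0.181, 0.488, 0.0640 and 0.568 on A to D at S10-12 and 0.0970, 0.121, 0.106 and 0.402 at S2-3. FBgn0050285-FBgn0034655, with 19, had 0.136, 0.0623 and 1.79 on A, C and D at S10-12 and 0.0815, 0.101, 0.0844 and 0.642 on A to D at S2-3. FBgn0017581-FBgn0037947, with 17, had 0.156, 0.115, 0.0718 and 1.03 at S6-7 and 0.170, 0.146, 0.141 and 0.168 at S2-3. It was lower at S6-7 on letters A to C and higher on D. Over the 4 comparisons the 3 regions had differences from 0.16 to 1.30 without the block, and adjusted p-values from 0.0921 to 0.784 with it. The sixth region tested, FBgn0004107-FBgn0038821, with a value on 14 of 20 membranes, was not called in either fit either. Its differences were -0.39, -0.16, -0.75 and 0.86 without the block (adjusted p = 0.833, 0.966, 0.719 and 0.614) and -0.01, 0.30, 0.52 and 0.80 with it (adjusted p = 0.977, 0.735, 0.516 and 0.261).

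The direction of many differences depended on the scale. Each membrane was also scaled to the 75th percentile of its library spots in place of RP49. The median difference of all features was then -0.39, -0.44, -0.34 and -0.13 at the 4 intervals. This scale comes from the library's own spots, so a rise shared by most of them would not show on it. The introns' medians were then -0.55, 0.0037, 0.13 and 0.21, and those of the intergenic regions -0.51, -0.57, -0.41 and -0.25. On this scale 0 introns were called higher at any interval, with or without the block. The intron of CG41265 (*l(2)41Ab*) was called lower at S5, by 1.82 on the log2 scale (adjusted p = 0.0286). So was FBgn0004107-FBgn0038821, by 1.53 (adjusted p = 0.0421). Relative to RP49 these had differences of -0.18 and -0.39 (adjusted p = 0.933 and 0.833). With the block FBgn0050285-FBgn0034655 was called lower at S5 as well, by 1.08 (adjusted p = 0.0256). Over all 159 features tested at S5 on this scale, 25 were called lower and 7 higher without the block. With it 32 were called lower and 10 higher, so that lower calls were not particular to these members. FBgn0035378-FBgn0035379 was the 1 member called higher on both scales with the block. On the 75th percentile scale it was higher by 1.80 at S6-7 (adjusted p = 0.0322) and 1.90 at S8-9 (adjusted p = 0.0208). In that fit 9 of 168 and 9 of 155 features were called higher at these 2 intervals. Without the block 0 intergenic regions were called higher on that scale.

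Comparisons within a letter changed with the scale too. A pair was counted only where both membranes had a value. Falls to under the signal rule and rises from under it are thus not counted. Relative to RP49, the later membrane was above the S2-3 membrane of its letter in 32 of 37, 35 of 40, 33 of 34 and 35 of 36 intron pairs from S5 to S10-12 in order. The counts were 15 of 21, 12 of 19, 15 of 17 and 11 of 17 for intergenic regions and 338 of 440, 378 of 499, 372 of 456 and 354 of 440 for genes. On the 75th percentile scale the counts were 14 of 37, 13 of 40, 16 of 34 and 21 of 36 for introns and 4 of 21, 4 of 19, 8 of 17 and 8 of 17 for intergenic regions, beside 168 of 440, 169 of 499, 164 of 456 and 186 of 440 for genes. The median RP49 signal itself, in the scanner's arbitrary units, had its lowest values at 0.0315, 0.0344, 0.0417, 0.0313 and 0.0121 and its highest at 0.132, 0.219, 0.669, 0.0755 and 0.0870 among the 4 membranes of each interval, from S2-3 to S10-12 in order, and the coefficient of variation of the RP49 spots of a membrane reached 125%.

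Highest intervals were counted for the 7 introns and 6 intergenic regions with at least 2 membranes in each of the 5 intervals. Of the introns, 5 had their highest mean at S8-9 and 2 at S10-12. Of the intergenic regions, 1 was highest at S6-7, 3 at S8-9 and 2 at S10-12. None of these introns and intergenic regions was highest at S2-3 or S5. Of 126 genes, 4, 33, 8, 28 and 53 were highest from S2-3 to S10-12 in order, and the difference between the classes was not tested. On the 75th percentile scale 2 introns, 4 intergenic regions and 52 genes were highest at S2-3.

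Members below the signal rule on every S2-3 membrane have only an approximate fold, called a bound here. The intron of CG32659 (*Ten-a*) passed in 0 of 8 spots at S2-3. It had 0.245, 0.239 and 0.736 on membranes A, C and D at S5, and 0.342, 0.374, 0.120 and 0.805 on A to D at S6-7. It had 0.587, 0.651, 0.347 and 1.07 at S8-9, and 0.707, 0.981 and 0.996 on A, B and D at S10-12. Each later mean is set against a ceiling for S2-3, which on every membrane is its dimmest passing library signal or, if brighter, the signal of the member itself. A later membrane that failed the rules entered with its unfiltered signal, and the fold was also taken over the passing membranes alone, against all S2-3 membranes or those of the same letters. The lowest of these folds is given. By this measure the intron was 4.31-fold, 4.51-fold, 8.30-fold and 9.34-fold higher from S5 to S10-12 in order than at S2-3. Its signal was highest at S10-12 on membranes A and B and at S8-9 on C and D, with no value on C at S10-12. The ceiling is not a detection limit, since brighter spots failed the rule too. At S2-3 the CG10897 intron had unfiltered signals of 0.290, 0.247 and 0.321 on A to C, with no spot passed.

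FBgn0040647-FBgn0052512 passed in 0 of 10 spots at S2-3 and had 0.738, 0.625 and 0.898 on A, C and D at S8-9. By the same measure it was 2.48-fold, 2.38-fold, 6.99-fold and 7.53-fold higher from S5 to S10-12 in order. Its 2 clones, 16_D02 and 26_F03, passed in 24 of 40 and 6 of 10 spots. FBgn0016120-FBgn0038679 passed in 0 of 8 spots at S2-3. By this measure it was 2.83-fold, 3.67-fold and 6.84-fold higher at S5, S8-9 and S10-12, where 4, 2 and 2 membranes passed. Bounds carry no test and are not strict lower limits, and the RP49 scale holds for them too.

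Both *Egfr* and *kuz* were also printed as coding clones. The intron of *Egfr* (CG10079) was measured on all 20 membranes. It had 0.621, 0.769, 0.204 and 0.847 on A to D at S10-12, against 0.103, 0.140, 0.112 and 0.628 at S2-3, where 9 of 16 spots passed. These values average 2 clones or rest on 1, since on A and B at S10-12 and on D at S2-3 only clone 10_C05 has a value, and on B at S2-3 only clone 27_F01. Clone 10_C05 by itself had 0.621, 0.769, 0.200 and 0.663 on A to D at S10-12, against 0.0695, 0.0868 and 0.628 on A, C and D at S2-3. Its differences with the block were 1.62, 0.15, 1.69 and 1.63 from S5 to S10-12 in order (adjusted p = 0.0238, 0.865, 0.0132 and 0.0149). Clone 27_F01, not tested by itself, had 0.136, 0.140 and 0.138 on A to C at S2-3. On B and C it had 0.241 and 0.0692 at S5, and on A to C 0.410, 0.275 and 0.125 at S6-7. On A and C it had 0.191 and 0.117 at S8-9, and on C 0.207 at S10-12. For both clones averaged, the differences with the block were 1.05, 0.60, 1.34 and 1.59 from S5 to S10-12 in order (adjusted p = 0.0427, 0.311, 0.0122 and 0.0045), and without it the adjusted p-values were 0.555, 0.936, 0.444 and 0.315. The *Egfr* coding clone passed in 0 of 8 spots at S2-3 and had 0.123, 0.167, 0.0738 and 0.553 on A to D at S6-7 and 0.225, 0.138 and 0.314 on A, C and D at S10-12. The intron of *kuz* (CG7147), on membrane D alone, had no value at S2-3 and 0.265, 0.384, 0.522 and 1.34 from S5 to S10-12 in order. The *kuz* coding clone on the same membrane had 0.655, 0.371, 0.491 and 0.426, also with no value at S2-3. Levels of an intron and a coding clone are not compared, since signal depends on the clone.

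The 28 members printed on membrane D alone have 1 value per interval and no test. Of 21 such introns, 10 had a value at S2-3 and 17, 18, 19 and 19 at the later intervals. Against their S2-3 value, 8, 8, 10 and 10 of these 10 were higher from S5 to S10-12 in order, with median log2 differences of 1.06, 1.17, 1.61 and 2.06. Among the genes on membrane D, 155 of 173, 155 of 175, 164 of 173 and 157 of 175 were higher, with medians of 1.50, 1.19, 1.47 and 1.61. Of 7 such intergenic regions, 1 had a value at S2-3, FBgn0039518-FBgn0039519, which had 0.897 at S10-12 and 0.189 at S2-3.

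Several of these introns, singled out after their values were seen, had courses of their own. The intron of CG34381 (*TrissinR*) had 2.52, 0.921, 1.48, 3.74 and 14.2 over the 5 intervals in order, so that it was lower at S5 and S6-7 than at S2-3 and highest last. The introns of CG41248 and CG34347 climbed to 4.67 and 4.32 at S10-12, against 0.937 and 0.812 at S2-3. The intron of CG5953 was highest early, at 1.47 at S5 against 0.148 at S2-3. The intron of CG3779 (*numb*) was highest at S8-9, at 1.55 against 0.317 at S2-3, and had 0.520 at S10-12. The intron of CG7470 (*P5CS*, an enzyme of proline synthesis) had values only at S8-9 and S10-12, 0.887 and 1.21.

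**Figure D5:**
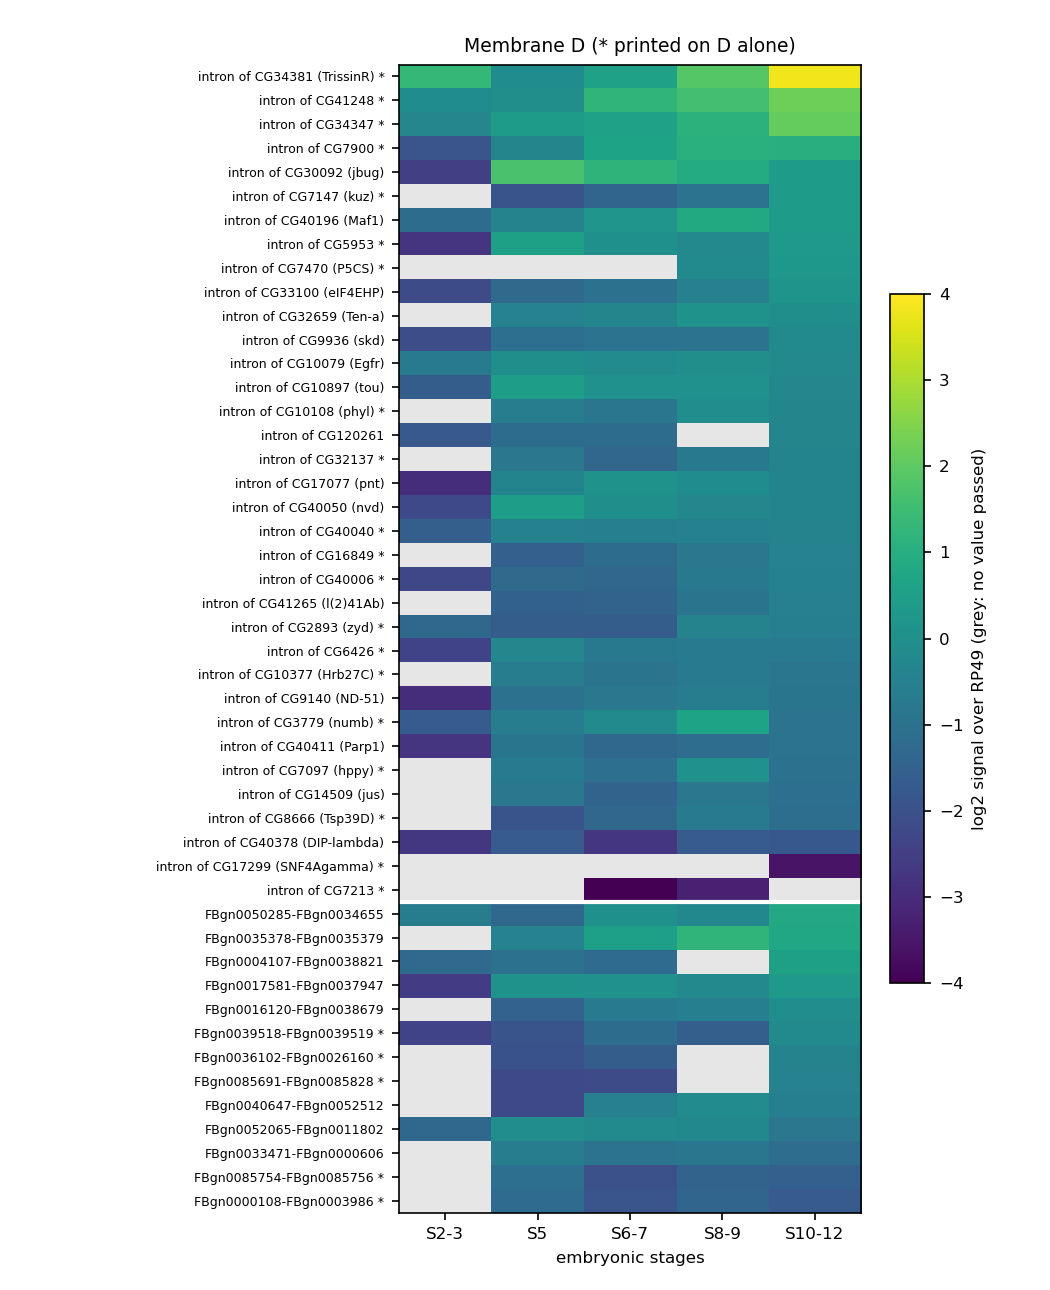
Log2 signal over RP49 on membrane D (color scale) for the 35 introns and 13 intergenic regions with a value there (rows, introns above the white line) at the 5 intervals (columns). Grey cells have no value and asterisks mark members printed on membrane D alone. Grey cells are most frequent at S2-3, where 22 introns and 5 intergenic regions had a value, and the intron of CG34381 reaches the highest value at S10-12.

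Other members with several clones on membrane D varied in how alike the clones were. The 3 clones of the CG9140 intron (*ND-51*, a subunit of respiratory complex I) lay within 1.24-fold of each other at S10-12 and 2.09-fold at S5. The 2 clones of the *Egfr* intron lay within 1.21-fold to 1.55-fold on this membrane at the 4 later intervals. On membrane C its clones 10_C05 and 27_F01 had 0.274 and 0.0692 at S5 and 0.200 and 0.207 at S10-12. The 2 clones of the CG10897 intron (*tou*, a chromatin regulator) stood 5.08-fold apart at S5 and 1.15-fold at S10-12. In the CG40411 intron (*Parp1*, a poly-ADP-ribose polymerase), clone 16_D03 passed in 10 of 10 spots and clone 26_F08 in 0 of 10.

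Annotated non-coding RNA genes of the library, 4 in number, gave mixed courses beside these regions. *roX1*, an RNA of the dosage compensation complex, rose by 2.80, 3.19 and 3.75 at S5, S8-9 and S10-12 without the block (adjusted p = 0.0219, 0.0077 and 0.0017) and had a difference of 2.42 at S6-7 (adjusted p = 0.0711). None of *Hsr-omega*, CR32477 and CR40712 was called without the block. With it *roX1* was called higher at all 4 intervals and CR32477 at S10-12, by 0.91 (adjusted p = 0.0441). With the block CR40712 fell by 3.11 at S5, fell by 2.75 at S8-9 and fell by 1.82 at S10-12 (adjusted p = 0.0016, 0.0029 and 0.0491).

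Control spots of genes with known embryonic roles varied by stage. Spots of *Sry-alpha*, a gene of cellularization, passed in 0.0, 53.3, 56.7, 13.3 and 0.0% from S2-3 to S10-12 in order. Mesoderm gene *sna* passed in 0.0, 38.2, 17.6, 8.82 and 20.6%, *twi* in 14.7, 47.1, 55.9, 35.3 and 23.5% and *tin* in 23.5, 26.5, 64.7, 64.7 and 50.0%. Spots of *fog*, a ligand of gastrulation, passed in 8.82% at S5 and in 0.0% at the other 4 intervals.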

How the data were processed

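The authors deposited, for every spot, background and signal intensity from VersArray Analyzer (mean signal, background mean, background SD and net signal), on an arbitrary scale with no normalization. The net signal is the software's own value. In 4.73% of member spots it was above 0 although the mean signal did not exceed the background mean, and the signal rule leaves these out. Clones were annotated by the authors against FlyBase release 5.4, and host symbols were taken from the RefSeq table of Release 6 through CG numbers, with no coordinates. Depth on arrays has no count, and the number of membranes limits the precision.

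A spot passed when its net signal was above 0 and its mean signal was no lower than 1 background SD above the background mean. Duplicates needed a coefficient of variation of 0.5 or less. Where 1 spot of a pair passed, it was used. The third filter of the Methods and SAM were not applied here. Net signals were divided by the RP49 median of the membrane. Features were tested with limma 3.58.1 in R 4.3.3, 20 membranes in 1 fit, with p-values adjusted by Benjamini-Hochberg over every library feature tested in a comparison, genes included, and again with the membrane letter as a block. The fit without the block was tested on simulated data. From S5 to S10-12 in order, it called 13 of 19, 12 of 20, 14 of 20 and 12 of 19 simulated 8-fold changes. Of simulated 4-fold changes it called 6 of 20, 5 of 20, 9 of 19 and 3 of 16, so that it missed most of these. Of unchanged features it called 2 of 120, 1 of 129, 0 of 116 and 0 of 119. Python 3.11.15, pandas 2.3.3, NumPy 2.4.6 and SciPy 1.17.1 were used otherwise.

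With interval means removed, 35 of 40 pairs of same-letter membranes had a correlation over 0.1, from -0.06 to 0.73. The letter was treated as a technical batch, since D has another layout, and not as a pairing of embryos. Whether letters A to C mark batches is not stated in the labels. Members named are those called in either fit, the 4 of each class with values on most membranes, the 3 with the fewest spots passed, those with a bound, and introns with a printed host gene. The members, lists and tests were chosen with earlier results of these data known. Alternatives were other scalings, normexp background, other signal and duplicate rules, a minimum of 3 membranes per interval, clone medians, fits of the compared intervals alone and leaving out each letter. The block with the 75th percentile, the block on A to C, a rule that both duplicates pass, 1 clone per feature (the clone with values on most membranes), bounds on matched letters and bounds over all later membranes were added after seeing the data. The authors' table of normalized values was not used here. No sequences are printed.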

Additional observations from a re-analysis of the deposited data

Results flagged for a closer look

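Of 46 sets of 4 membranes tested, 5 held a membrane far from the other 3, and chance alone marks about 1 set in 20. On membrane D at S2-3, log2 signal over RP49 was -0.64 for FBgn0050285-FBgn0034655 and -1.31 for FBgn0052065-FBgn0011802, above the other letters. On membrane D at S8-9 it was 0.86 for the intron of CG40196, again above the others. At S6-7 membrane B had the fewest spots over the signal rule, 36.1% of intron spots and 37.5% of intergenic spots.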

How the results depend on the processing

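With the replicate block by membrane letter, a technical batch and no pairing of embryos, 4, 3, 4 and 6 introns and 1, 1, 2 and 0 intergenic regions were higher from S5 to S10-12 in order, against 0 without it. With the block and 1 clone per feature the counts were again 4, 3, 4 and 6 introns and 1, 1, 2 and 0 regions, and with 1 clone and no block 0. On A to C with the block the counts were 3, 0, 2 and 4 of 5, 7, 3 and 4 introns tested. For regions they were 2, 1, 2 and 0 of 6, 6, 5 and 5. Over all features, 41 of 121, 21 of 143, 38 of 122 and 38 of 101 were called higher there. On all 4 letters with the block, 39.6, 21.4, 39.4 and 44.2% of all features were called higher. With RP49 and dap scaling on A to C they were 2 introns at S5 and 1 at S10-12, and 2, 1 and 1 regions at S5, S6-7 and S8-9. With normexp background 1 region was higher at S6-7 and at S8-9, with no signal rule 1, 1, 2 and 2 regions, and with only the compared intervals in the fit 1 intron and 1 region at S8-9. On the 75th percentile scale 1 intron and 1 region were lower at S5, beside 25 of 159 features in all. With the block 1 intron and 2 regions were lower at S5, beside 32 of 159 features. In that fit 1 region was higher at S6-7 and at S8-9, beside 9 of 168 and 9 of 155 features. On that scale 2, 0, 1, 3 and 1 introns and 4, 0, 1, 1 and 0 regions had their highest mean from S2-3 to S10-12 in order. With a rule of 2 background SDs, 15.9% of intron spots passed at S2-3 and 50.0, 46.4 and 46.4% of intergenic spots at S5, S6-7 and S8-9, and the intergenic minus gene difference was -9.85 points (permutation test, p = 0.0072). For the other settings, and for leaving out a letter, the share of calls over all features is not given. Their counts are therefore not read as results about the members. The causes of the changes between settings were not tested.

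Leaving out each membrane letter gave 0 introns and 0 regions higher or lower, except 0 to 1 regions higher at S6-7 and S8-9 (1 without C or D) and 0 to 1 introns at S10-12 (1 without D). Intron shares then ran from 35.5 to 46.5%, 56.5 to 70.9%, 63.9 to 81.4%, 45.4 to 68.6% and 47.2 to 75.6% over the 5 intervals, and intergenic shares from 30.9 to 52.1%, 72.1 to 81.2%, 60.4 to 70.6%, 60.4 to 69.1% and 52.1 to 70.6%. The intron minus gene difference ran from -10.4 to -7.97 points and the intergenic minus gene difference from -8.06 to 0.0533, the last without D.

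Several log2 differences from S2-3 that were above 0 on the RP49 scale fell below 0 under other settings. On the 75th percentile scale FBgn0017581-FBgn0037947 had -0.271, -0.652, -0.427 and -0.316 from S5 to S10-12 in order, FBgn0050285-FBgn0034655 -1.08, -0.525, -0.686 and -0.175, and FBgn0052065-FBgn0011802 -0.740, -0.622, -0.384 and -0.466. FBgn0033471-FBgn0000606 had -0.263 at S6-7 and FBgn0035378-FBgn0035379 -0.155 at S10-12. The introns had -0.178 and -0.342 at S5 and S6-7 (CG10079), -0.548 at S5 (CG33100), -0.0510 at S10-12 (CG40050), -0.489 at S5 (CG40196) and -0.0328 at S6-7 (CG9936). With the block on that scale the values were the same to 3 digits, except -0.588 and -0.344 at S8-9 and S10-12 for FBgn0017581-FBgn0037947, -0.248 at S10-12 for FBgn0050285-FBgn0034655, -0.206 for FBgn0033471-FBgn0000606, -0.275 for CG33100 and -0.342 for CG40196, and those of FBgn0035378-FBgn0035379 and CG9936 were above 0. With quantile normalization FBgn0017581-FBgn0037947 had -0.265 and -0.156 at S6-7 and S10-12, FBgn0050285-FBgn0034655 -0.316, -0.0197 and -0.440 at S5, S6-7 and S8-9, and FBgn0052065-FBgn0011802 -0.175, -0.228, -0.190 and -0.550 at the 4 intervals. The introns then had -0.0382 at S6-7 (CG10079), -0.145 at S5 (CG33100), -0.0866 at S10-12 (CG40050) and -0.471 and -0.138 at S5 and S10-12 (CG40196). With the RP49 mean, S5 gave -0.472 for FBgn0050285-FBgn0034655, -0.136 for FBgn0052065-FBgn0011802, -0.0334 for CG33100 and -0.118 for CG40196. FBgn0050285-FBgn0034655 had -0.0478 at S8-9 with RP49, actin and tubulin, -0.105 at S5 where both duplicates had to pass, -0.200 at S5 without membrane B and -0.0529 at S6-7 with 2 background SDs. FBgn0052065-FBgn0011802 had -0.103 at S6-7 where both duplicates had to pass. FBgn0017581-FBgn0037947 had -0.157 at S6-7 with RP49 and dap, -0.673 at S6-7 with 2 background SDs, -0.486 and -0.515 at S6-7 and S10-12 without D, and -0.486 and -0.321 on A to C with the block. Leaving out each letter, its differences ran from -0.486 to 0.710 at S6-7 and from -0.515 to 1.45 at S10-12, and those of FBgn0050285-FBgn0034655 at S5 from -0.200 to 0.438.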
